A study of Mus musculus with 12 samples.

Results

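The genes described here are 39 mouse genes of pre-mRNA splicing other than the classical SR proteins. They comprise 20 heterogeneous nuclear ribonucleoproteins (hnRNPs), 2 Tra2 genes, 5 factors of the U1 and U2 steps, 6 kinases of SR proteins, and 6 SR-related or other splicing proteins. They were picked by symbol, and all 39 were found once each among the 53392 genes of the deposited tables. PolyA RNA was sequenced from 12 libraries of 129S4 mouse embryos, in 4 groups of 3 biological replicates. The first pair of groups was palatal shelf mesenchyme at E13.5 (E for embryonic day), wild-type (Pdgfra+/+) or homozygous for a Pdgfra allele (PdgfraPI3K/PI3K) whose receptor cannot bind the lipid kinase PI3K. The second pair was maxillary process mesenchyme at E11.5, in which both groups carried floxed Srsf3, a classical SR protein gene: the control (Srsf3fl/fl;Wnt1-Cre+/+) lacked the Cre transgene and the conditional knockout, labelled cKO (Srsf3fl/fl;Wnt1-Cre+/Tg), carried it. Wnt1-Cre acts in neural crest cells, the source of most facial mesenchyme, so blood, vessel and surface cells of these embryos keep the gene. The labels do not say whether a library held 1 embryo or several.

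Splicing removes introns in steps that start with the U1 particle at the 5′ splice site and with U2AF and the U2 particle at the 3′ end of the intron. SR proteins and hnRNPs bind the transcript around these sites and, in many textbook cases, favour and oppose the use of an exon respectively. SRPK kinases phosphorylate SR proteins in the cytoplasm and drive their import, CLK kinases act on them in the nucleus, and SRPK activity is known to respond to PI3K and Akt signalling. Many of these factors also splice their own transcripts into forms that are degraded or kept in the nucleus.

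Library totals were 30.5 to 37.4 M estimated counts (M for 1000000) in the palatal shelf and 15.9 to 27.9 M in the maxillary process. Levels are given as TPM (the share of transcripts, scaled for length and to a sum of 1000000 per library). For tests they are given as normalised CPM, counts per 1000000 that are scaled for depth and by TMM factors but not for length. The TMM factors were fitted within each comparison, so the CPM of a library differs somewhat between comparisons. Srsf3 itself stood at 470, 407 and 416 TPM in the control libraries and at 320, 441 and 407 TPM in the cKO libraries, which overlapped, so the total of this gene does not separate the labelled groups; reads over the floxed part were not analysed here. The 10 facial mesenchyme markers summed to 1982 to 3583 TPM and none was at 0 in any group. The label says that the ectoderm was removed, yet the 12 ectoderm markers summed to 402 to 947 TPM in the palatal shelf libraries, against 3.50 to 18.9 TPM in those of the maxillary process.

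The 39 genes took up 1.30% to 1.53% of all TPM in the palatal shelf and 1.73% to 2.02% in the maxillary process. The hnRNPs made up most of it. Their summed level was 10098, 11827 and 11279 TPM in wild-type palatal shelf and 16143, 15596 and 15291 TPM in control maxillary process. The PI3K libraries (10269, 11431 and 11758 TPM) lay in the range of the wild-type ones, and the cKO libraries (13683, 15946 and 15605 TPM) overlapped the controls. The lowest maxillary library therefore stood above the highest palatal one for the hnRNPs. The 6 kinases together gave 354 to 511 TPM in the palatal shelf and 376 to 417 TPM in the maxillary process, and these ranges overlapped.

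Over the 12 libraries the highest mean level was that of Hnrnpa1 at 2092 TPM, whose protein binds exonic silencers and shuttles between nucleus and cytoplasm. Hnrnpa2b1 followed at 1509 TPM, then Hnrnpab at 1241, Hnrnpk at 1220 and Hnrnpd at 906 TPM. In wild-type palatal shelf Hnrnpa2b1 (1271 TPM ± 103, SD, n = 3) and its neighbour in the order, Hnrnpk (1181 TPM ± 93.1), had overlapping libraries. Hnrnpab and Hnrnpk changed places between the tissues. Hnrnpab lay at 1311 to 1880 TPM in the 6 maxillary libraries and at 758 to 1009 TPM in the 6 palatal ones, while Hnrnpk, a binder of C-rich RNA, lay at 1138 to 1308 and at 1069 to 1319 TPM. Within each of the 4 groups the libraries of these 2 genes did not overlap, with Hnrnpab the higher in the maxillary process and Hnrnpk the higher in the palatal shelf. The lowest 5 genes were all kinases: Clk1 (77.5 TPM), Clk2 (70.0), Clk3 (69.4), Srpk2 (43.0) and Clk4 (38.1), given as means over 12 libraries, with library ranges that overlap between neighbours.

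**Figure D1:**
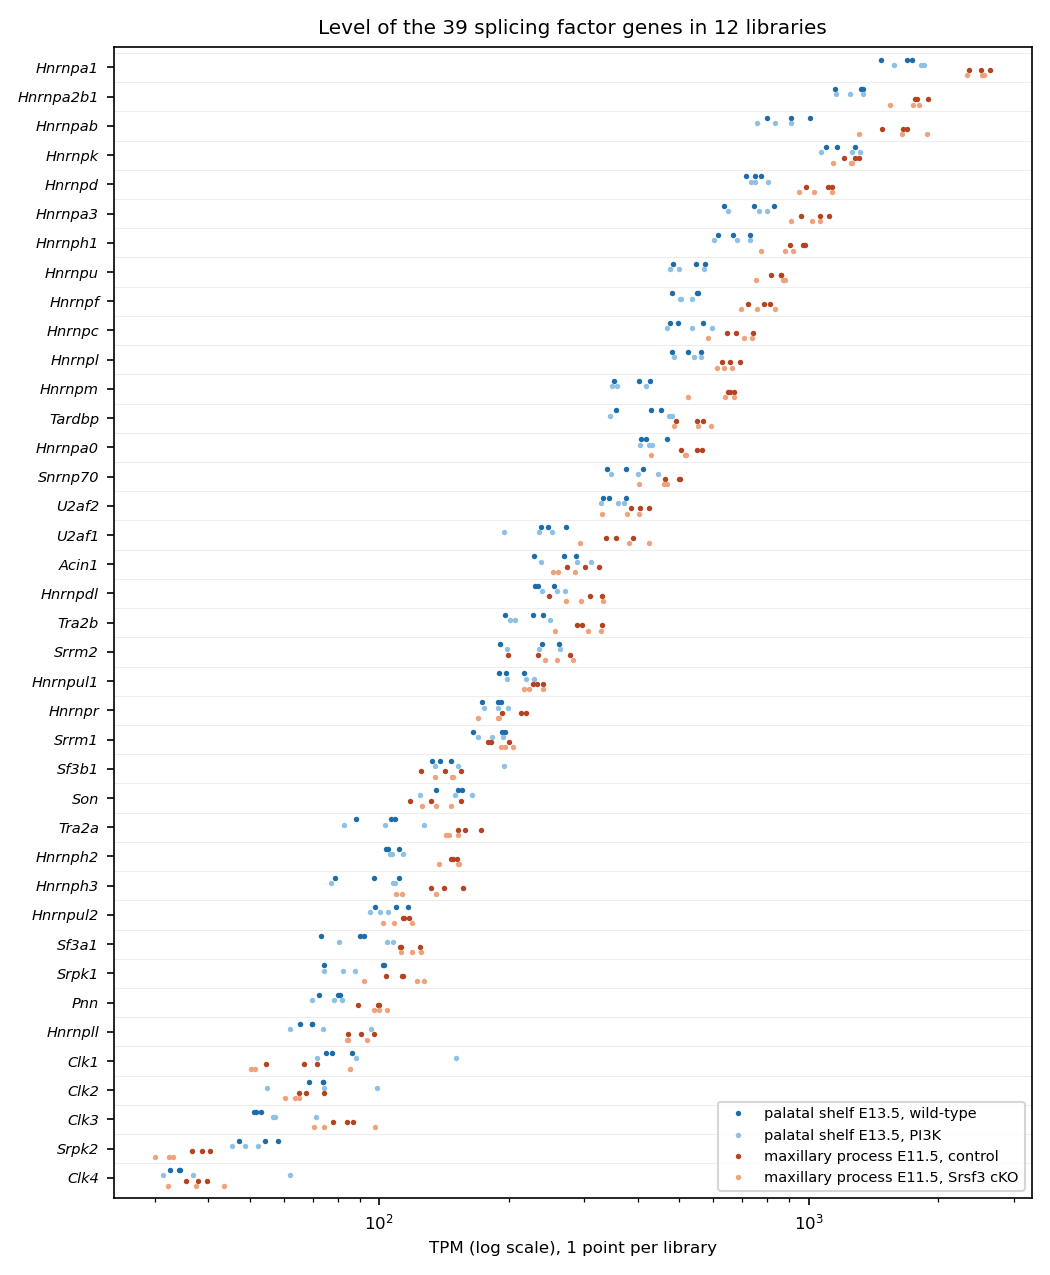
TPM of the 39 genes on a log axis, 1 point per library, coloured by group and ordered by the mean over 12 libraries. Hnrnpa1 is at the top, the kinases are at the bottom, and for many hnRNPs the maxillary points lie to the right of the palatal ones.

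The promoters of the 4 genes that fell most between the tissues, described next, and of the 2 genes with the highest fold changes that RefSeq gives a promoter for, are shown because the first set moved together. Each is 250 bases before to 50 bases after a RefSeq transcription start (build GRCm38.p6), 5′ to 3′ on the gene's strand, with matches to any of the motifs named below in capitals. Srpk2 has 3 such promoters, of which 1 is shown.
Hnrnpab (chr11:51606832-51607131, minus strand): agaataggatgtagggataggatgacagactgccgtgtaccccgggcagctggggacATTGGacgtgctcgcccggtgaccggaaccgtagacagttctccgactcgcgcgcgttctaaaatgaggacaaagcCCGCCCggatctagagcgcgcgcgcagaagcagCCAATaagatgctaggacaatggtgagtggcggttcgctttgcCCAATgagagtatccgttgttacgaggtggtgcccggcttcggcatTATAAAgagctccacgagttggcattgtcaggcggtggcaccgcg
Hnrnpm (chr17:33685409-33685708, minus strand): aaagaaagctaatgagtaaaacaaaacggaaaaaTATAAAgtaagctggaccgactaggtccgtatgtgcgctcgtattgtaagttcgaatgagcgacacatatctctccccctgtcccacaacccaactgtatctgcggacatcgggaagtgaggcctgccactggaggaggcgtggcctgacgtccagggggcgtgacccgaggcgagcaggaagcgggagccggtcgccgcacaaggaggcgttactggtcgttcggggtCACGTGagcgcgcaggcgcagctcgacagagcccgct
Hnrnpu (chr1:178337766-178338065, minus strand): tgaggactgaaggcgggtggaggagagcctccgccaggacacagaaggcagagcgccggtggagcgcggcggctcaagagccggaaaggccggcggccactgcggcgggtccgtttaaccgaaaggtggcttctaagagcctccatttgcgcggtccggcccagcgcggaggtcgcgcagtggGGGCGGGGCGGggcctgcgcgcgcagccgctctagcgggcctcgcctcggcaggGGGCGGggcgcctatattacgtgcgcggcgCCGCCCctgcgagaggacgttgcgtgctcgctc
Tra2b (chr16:22265956-22266255, minus strand): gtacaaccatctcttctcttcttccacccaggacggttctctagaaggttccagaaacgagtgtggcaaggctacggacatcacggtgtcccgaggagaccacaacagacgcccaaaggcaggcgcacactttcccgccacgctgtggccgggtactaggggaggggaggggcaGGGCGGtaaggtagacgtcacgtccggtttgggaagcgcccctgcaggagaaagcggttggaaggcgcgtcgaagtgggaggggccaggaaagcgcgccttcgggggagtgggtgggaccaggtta
Srpk2 (chr5:23676411-23676710, minus strand): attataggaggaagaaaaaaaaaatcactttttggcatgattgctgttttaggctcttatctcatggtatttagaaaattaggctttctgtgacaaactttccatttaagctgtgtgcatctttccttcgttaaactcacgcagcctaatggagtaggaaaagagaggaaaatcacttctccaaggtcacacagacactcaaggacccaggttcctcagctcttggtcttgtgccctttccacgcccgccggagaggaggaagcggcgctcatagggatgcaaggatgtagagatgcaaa
Clk2 (chr3:89164545-89164844, plus strand): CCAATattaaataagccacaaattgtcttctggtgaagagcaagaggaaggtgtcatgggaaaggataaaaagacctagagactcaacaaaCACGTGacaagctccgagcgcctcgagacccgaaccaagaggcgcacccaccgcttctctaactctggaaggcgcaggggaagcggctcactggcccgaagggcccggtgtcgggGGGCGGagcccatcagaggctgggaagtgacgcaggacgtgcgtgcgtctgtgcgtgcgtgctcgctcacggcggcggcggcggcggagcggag

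RefSeq promoters were found for 35 of the 39 genes. A gene counted as holding a motif when any of its promoters held the exact letters on either strand, and matches may overlap. The GC box GGGCGG was in 27 of the 35 genes (77.1%, against 38.2% of all 27025 genes with a promoter) and the CCAAT box CCAAT in 20 (57.1%, against 41.1%). The E box CACGTG and the ETS core CCGGAAG were each in 6 (17.1%), against 8.09% and 9.93% of all genes. The other motifs searched were each in few of the 35 genes. TATAAA was in 3 (8.57%, against 15.7% of all genes) and the NRF1 site in 2 (5.71%, against 1.07%). The CRE TGACGTCA was in 2 (5.71%, against 2.03%) and the YY1 site AAGATGGCG in 1 (2.86%, against 1.64%). Of these, TATAAA alone had a lower share than among all genes. Of the 29 genes with a promoter that were lower in the palatal shelf, 23 held the GC box, as did 4 of the other 6. The printed promoters differ among themselves: that of Hnrnpab holds 3 CCAAT boxes, that of Hnrnpu 4 GC boxes and no CCAAT box, and that of Srpk2 none of the 8 motifs. The median GC content was 63.3% for the 51 promoters of these genes and 52.7% for all 32851 promoters.

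Wild-type palatal shelf at E13.5 was compared with control maxillary process at E11.5. The series' design text does not name this comparison. Stage, tissue, the floxed Srsf3 alleles, the sequencing lane in the labels and the deposited table all differ between the 2 groups and cannot be told apart, and in bulk tissue fewer cells of a type and less RNA per cell cannot be told apart either. In this comparison 31 of the 39 genes were lower in the palatal shelf and 0 were higher at a false discovery rate (FDR) of 0.05 in edgeR's quasi-likelihood test. That is 79.5% of the members, against 23.4% of all 15752 genes tested that were called lower and 50.6% called in either direction. At an unadjusted p under 0.05 there were 33, against 57.2% of all genes in either direction, and DESeq2 called 32 lower, against 19.7% of the genes to which it gave an adjusted p. On TPM, tested with limma on log2(TPM + 1), 21 members were lower and 1, Srpk2, was higher, against 12.5% of all genes lower and 42.8% in either direction. The 10 genes that passed in edgeR and not on TPM were Hnrnpdl, Hnrnpk, Hnrnpr, Hnrnpul1, U2af2, Sf3b1, Srpk1, Tardbp, Pnn and Acin1. The median log2 fold change was -0.50 for the 39 genes and 0.03 for all genes. The CPM of 34 members did not overlap between the groups and was lower in the palatal shelf, against 28.9% of all genes.

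Among the hnRNPs 19 of 20 fell (15 on TPM), with a median log2 change of -0.62. Hnrnpab, which binds single-stranded nucleic acids and is close to the hnRNP D family, stood at 1714, 1664 and 1343 CPM in the maxillary control and at 708, 870 and 778 CPM in the palatal shelf. The lowest control library was thus above the highest palatal one. The fall was 2.004-fold (log2 -1.003, SE 0.14, adjusted p = 0.00115). Hnrnpm, a binder of GU-rich RNA, went from 943, 925 and 873 CPM to 446, 534 and 490 CPM without overlap, a log2 change of -0.90 (SE 0.10, adjusted p = 0.000606). Hnrnpu, a large nuclear matrix protein that binds RNA and chromatin, went from 1818, 1688 and 1629 CPM to 889, 1031 and 970 CPM. Its log2 change was -0.83 (SE 0.11, adjusted p = 0.000984). All 3 genes had the controls above every palatal library.

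The abundant Hnrnpa1 fell from 2687, 2535 and 2190 CPM to 1324, 1487 and 1501 CPM (log2 -0.78, SE 0.13, adjusted p = 0.0021). Its relatives Hnrnpa2b1 and Hnrnpa3 fell by 0.65 and 0.64 on the log2 scale, and Hnrnpa0, which has a single annotated transcript, by 0.48. In the H and F group, which binds G-runs, Hnrnph3 changed by -0.79, Hnrnph1 by -0.72, Hnrnph2 by -0.70 and Hnrnpf by -0.67. Hnrnph2 stood at 188, 182 and 164 CPM in the control and 110, 113 and 106 CPM in the palatal shelf, without overlap, and had the smallest adjusted p of the 39 genes (0.000568). The hnRNP that missed the threshold was Hnrnpul2, with a log2 change of -0.25 (95% interval -0.47 to -0.03, adjusted p = 0.0560).

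The other binding factors fell too. Tra2b, an activator of exons with AGAA-type purine runs, stood at 469, 407 and 370 CPM in the control and at 220, 253 and 242 CPM in the palatal shelf, with no overlap and a log2 change of -0.80 (SE 0.11, adjusted p = 0.00129). Its paralog Tra2a went from 191, 168 and 165 CPM to 88.8, 107 and 108 CPM, a log2 change of -0.78 (SE 0.11, adjusted p = 0.00109). All 5 U1 and U2 factors fell in edgeR, and 3 of them on TPM. Sf3a1, a subunit of the U2 particle, changed by -0.70 and U2af1, which reads the AG at the end of the intron, by -0.63. Snrnp70, the U1 protein contacted by SR proteins, changed by -0.52, U2af2, which binds the polypyrimidine tract, by -0.37, and Sf3b1, which holds the branch point, by -0.27 (adjusted p = 0.0350). On log2(TPM + 1) U2af2 had -0.21 (limma, adjusted p = 0.136) and Sf3b1 -0.0096 (adjusted p = 0.954). Sf3b1 kept its call in 1 of the 6 fits that left out a library, and U2af2 in 2.

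The kinases were mixed, with 2 of 6 lower in edgeR. Srpk1 stood at 176, 167 and 141 CPM in the control and at 102, 126 and 123 CPM in the palatal shelf (log2 -0.46, SE 0.12, adjusted p = 0.0141), and Clk3 changed by -0.43 (SE 0.09, adjusted p = 0.00653). On log2(TPM + 1) the difference of Srpk1 was -0.25 (limma, adjusted p = 0.211). Srpk2 lay the other way, at 87.2, 96.6 and 97.3 CPM in the control against 101, 113 and 105 CPM. Its groups did not overlap, but the log2 difference of 0.18 (95% interval -0.01 to 0.37) did not pass (adjusted p = 0.0981). On log2(TPM + 1) the difference of Srpk2 was 0.45 (limma, adjusted p = 0.0190). An exon of Srpk2 overlaps Kmt2e on the opposite strand, and whether strand was used in counting is not given in the sources used here. The values of Clk1 (0.06, interval -0.18 to 0.29) and Clk2 (0.00, interval -0.18 to 0.19) were close to 0, and Clk4 had -0.27 (adjusted p = 0.0653). Whether the kinases differ from the hnRNPs was not tested.

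Of the SR-related and other proteins 3 of 6 fell in edgeR and 0 on TPM. Tardbp, the gene of the UG-binding protein TDP-43, changed by -0.63, Pnn, which sits at exon junctions, by -0.47, and Acin1, another exon junction protein, by -0.34. On log2(TPM + 1) they had -0.38 (limma, adjusted p = 0.0521), -0.30 (adjusted p = 0.0528) and -0.19 (adjusted p = 0.252). The nuclear speckle scaffolds did not pass in these libraries: Srrm2 had -0.16 (interval -0.51 to 0.18) and Son -0.06 (interval -0.30 to 0.17), and Srrm1 had -0.25 (adjusted p = 0.0894). The TPM scaling moved the median of all genes from 0.03 to 0.16 and the share of higher calls among all called genes from 53.7% to 70.9%. Relative to the median of all genes, the members' median was -0.53 with edgeR and -0.54 on TPM.

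**Figure D2:**
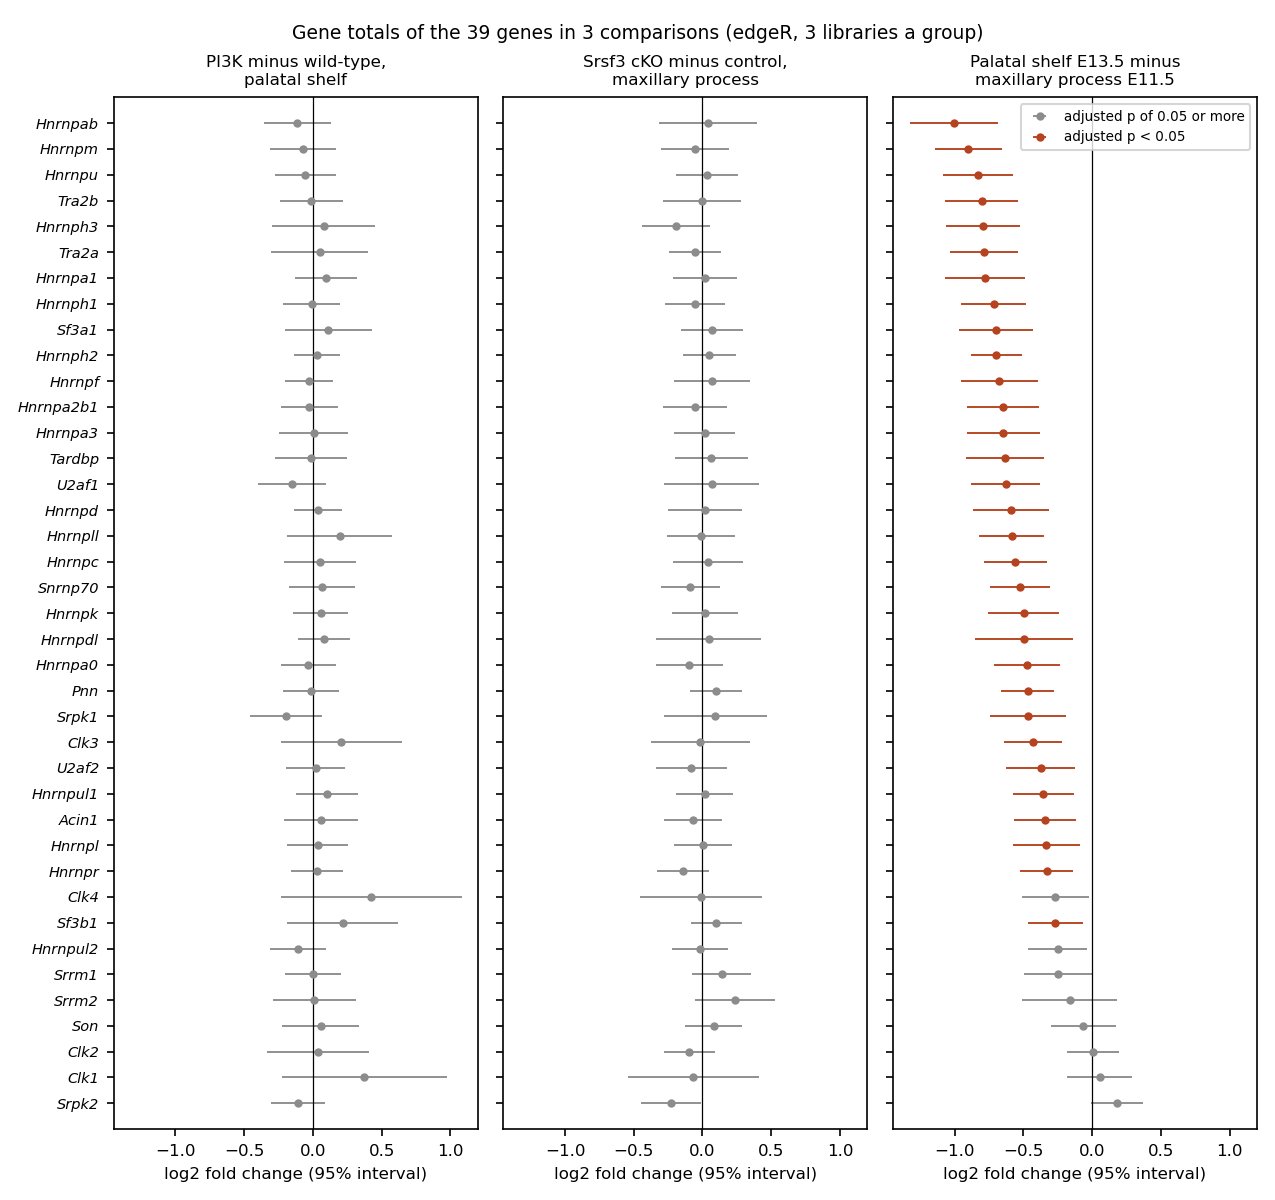
Log2 fold change with 95% interval of the 39 genes in 3 comparisons (edgeR, 3 libraries a group), ordered by the comparison of the tissues. No gene is coloured as called in the 2 genotype panels, while in the third panel 31 genes lie to the left of 0 and are called.

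The 6 libraries that this comparison leaves unused, PI3K palatal shelf and cKO maxillary process, allowed the same contrast in other embryos, with the genotypes added to what differs. There 27 of the 39 genes were called lower, against 19.9% of all 15948 genes, with a median log2 change of -0.48. The 2 sets of called genes shared 24 genes, which is 77.4% of the 31 and 88.9% of the 27. The sign was the same for 38 of 39 genes, the exception being Clk4 (0.15, SE 0.31, edgeR, adjusted p = 0.719). For Clk1 and Clk4 PI3K library 2 stood above the others of its group, as described below for the genotype comparison. Hnrnpab had -1.18, Hnrnpm -0.94, Hnrnpu -0.94 and Tra2b -0.83 in these libraries. Srpk1 had -0.78 (adjusted p = 0.00866), and Srpk2 had 0.28 (adjusted p = 0.0556). The 7 genes that did not pass there were Clk3 (-0.22, adjusted p = 0.434), Sf3b1 (-0.17, adjusted p = 0.4504), Hnrnpr (-0.18, adjusted p = 0.169), Acin1 (-0.24, adjusted p = 0.156), Hnrnpll (-0.40, adjusted p = 0.0962), U2af2 (-0.29, adjusted p = 0.0855) and Hnrnpul1 (-0.29, adjusted p = 0.0531). The 3 genes that passed there alone were Srrm2 (-0.42, adjusted p = 0.0216), Srrm1 (-0.41, adjusted p = 0.0116) and Hnrnpul2 (-0.36, adjusted p = 0.0220).

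**Figure D3:**
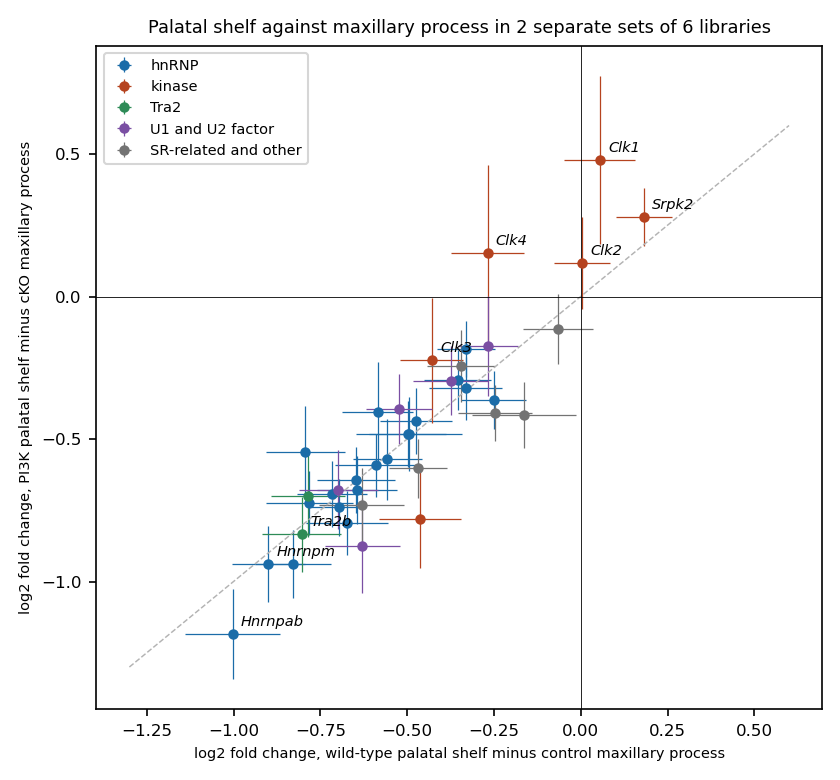
Log2 fold change of palatal shelf over maxillary process in wild-type and control libraries (horizontal axis) and in PI3K and cKO libraries (vertical axis), 1 point per gene, bars 1 standard error, dashed line equality, coloured by role. The hnRNPs lie in the lower left with Hnrnpab at -1.003 and -1.18, while Clk1, Clk2, Clk4 and Srpk2 lie at or above 0 on the vertical axis.

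Other lists of the splicing machinery were also mostly lower in the palatal shelf, where 23.4% of all genes were. Of 30 further U1 and U2 genes 27 were called lower and 0 higher (median -0.53), among them Snrpf (-0.94) and Sf3a3 (-0.86). Of 30 genes of the tri-snRNP and catalytic spliceosome 22 were lower (median -0.44), Prpf4 at -0.82 among them. Of 16 genes of the exon junction complex and nonsense-mediated decay 12 were lower (median -0.35), and of 14 tested other kinases and import factors of SR proteins 6 were lower and 1 higher (median -0.21). Tnpo1 and Tnpo3, importins of RNA-binding and SR proteins, changed by -0.84 and -0.53. All 25 cell cycle genes were lower as well, with a median of -1.002, Rrm2 at -1.83 and Bub1 at -1.32. Cell types moved too: all 12 ectoderm markers were called higher in the palatal shelf, as were 7 of 10 macrophage and 5 of 8 endothelial markers. Of 10 red blood cell markers 6 were called lower and 2 higher. Over all 12 libraries these summed to 4667 to 10555 TPM in the palatal shelf and 13788 to 40472 TPM in the maxillary process. Facial mesenchyme markers were mixed (5 lower and 3 higher of 10), as were neuron and glia markers (5 lower and 3 higher of 10 tested). Of 7 osteochondral markers tested 3 were higher and 0 lower. None of the genes of the 5 splicing and cell cycle lists was called by edgeR in either genotype comparison, with 0 to 3 genes a list at an unadjusted p under 0.05. The part of the cell cycle genes and of these cell types in the members' falls was not tested.

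In build GRCm38 Hnrnpab lies at chr11:51600100-51606847, Hnrnpm at chr17:33646233-33686860, Tra2b at chr16:22244549-22266005, Hnrnpk at chr13:58391142-58403343 and Clk3 at chr9:57750624-57765860, all on the minus strand, and Hnrnpl lies at chr7:28808541-28822266 on the plus strand. Counting is less certain for some members. In the GENCODE M21 transcripts 10 of the 39 genes shared at least 10% of their 31-base stretches with transcripts of another gene, led by Hnrnpf (38.5%), Hnrnpa1 (29.3%) and Hnrnpa3 (28.1%), for which the gene sharing most was Gm6430, Gm10052 and Gm5641. All 10 were among those called lower between the tissues, and of the other 29 genes 21 were. Exons of 14 members overlap a gene on the opposite strand, such as Hnrnpu with Cox20 and Clk3 with Edc3.

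The PI3K genotype was compared with wild-type in the palatal shelf to ask how the loss of PI3K binding by the receptor bears on these genes. None of the 39 passed an FDR of 0.05 in edgeR, DESeq2 or limma, and 0 had an unadjusted p under 0.05 in edgeR. Among all 16525 genes 0% passed the FDR and 2.14% had such a p. Pdgfra, the gene altered in this genotype, thus did not pass either. It stood at 140, 130 and 145 TPM in wild-type and at 186, 200 and 243 TPM in PI3K libraries, without overlap. None of the 39 had groups without overlap, against 6.23% of all genes. The median log2 difference was 0.03, and 35 of the 39 95% intervals lay within a 1.5-fold change either way. The 4 wider ones were those of Clk1, Clk3, Clk4 and Sf3b1.

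Of the kinases, Srpk1 had the smallest p: it stood at 104, 129 and 126 CPM in wild-type and at 102, 97.8 and 114 CPM in PI3K libraries. The groups overlapped, and the log2 difference was -0.20 (95% interval -0.46 to 0.06, unadjusted p = 0.118). Clk1 stood at 70.6, 79.9 and 71.2 CPM in wild-type and at 66.5, 139 and 81.2 CPM in PI3K libraries, and Clk4 at 25.3, 29.5 and 26.1 CPM against 25.3, 54.7 and 28.9 CPM. For both genes 1 PI3K library, replicate 2, stood above the other 5. The log2 differences of 0.37 for Clk1 and 0.43 for Clk4 became -0.0009 and 0.0045 without that library. Sf3b1 was also highest there, at 602 CPM against 375 and 415 CPM in its group, and its difference of 0.22 became -0.0168. Srpk2 had -0.11 and U2af1 -0.15, both with overlapping groups.

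In the maxillary process the cKO, a genotype meant to remove Srsf3 from neural crest cells, was compared with the control for the other splicing factors. As given above, the Srsf3 total overlapped between these groups and reads over the floxed part were not analysed. None of the 39 genes passed an FDR of 0.05 in edgeR, DESeq2 or limma. In edgeR 0.0842% of all 14254 genes passed, and 1 member had an unadjusted p under 0.05, against 12.2% of all genes. The median log2 difference was 0.02. All 39 intervals lay within a 1.5-fold change either way, the widest reaching -0.54 and 0.53. Groups did not overlap for 3 members, 1 higher and 2 lower, against 18.1% of all genes in either direction.

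The member with that p was Srpk2. It stood at 82.5, 92.3 and 94.98 CPM in the control and at 81.3, 71.7 and 77.5 CPM in the cKO, every cKO library being below every control library by a small margin. Its log2 difference was -0.23 (SE 0.09, unadjusted p = 0.0412, adjusted p = 0.392). Srrm2, a scaffold of nuclear speckles, had 951, 838 and 1151 CPM against 1160, 1131 and 1181 CPM, a difference of 0.24 with overlapping groups (adjusted p = 0.491). Hnrnph3 had -0.19 and Hnrnpr -0.14, and Sf3b1, whose groups did not overlap, 0.10. In the cKO, library 1 held the highest Clk1 (85.6 CPM, against 51.0 and 54.2) and the highest Clk4 (39.5 CPM, against 23.6 and 27.5). It also had the lowest level of 28 of the 39 members within its group, and the highest red blood cell and endothelial marker sums of the 6 maxillary libraries (40472 and 427 TPM). Within the other groups a library likewise held most of the lowest values: library 1 for 31 members in wild-type, library 1 for 32 in PI3K and library 3 for 25 in the control. With the CPM of the tissue comparison, control library 3 was lowest for 28. The median log2 deviations of these libraries from their group means were small, at -0.09, -0.10 and -0.06, and -0.10 for cKO library 1. How often each library was lowest over all genes was not counted, so this order cannot be called particular to the members. Wild-type library 1 had the highest osteochondral marker sum of its group (1780 TPM, against 272 and 429), and also the highest muscle (68.3 against 4.86 and 9.45) and macrophage sums (133 against 49.3 and 76.1). PI3K library 1 had the highest osteochondral (1035 against 459 and 549), muscle (282 against 40.5 and 153) and macrophage sums (103 against 54.4 and 73.2). Control library 3 had the highest neuron and glia sum (183 TPM, against 62.8 and 90.0). The facial mesenchyme sum was also highest in control library 3 (3583 TPM, against 2464 and 2802). It was highest in PI3K library 1 too (2843, against 2836 and 2558). In wild-type library 1 it lay between the others (2669, against 2416 and 2717). In cKO library 1 it was lowest (1982.5, against 2245 and 2464.5). That library also had the highest macrophage, muscle and osteochondral sums of the 6 maxillary libraries (61.9, 20.2 and 457 TPM). The part of these markers in the order of libraries was not tested.

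The ratio of a gene's count to its TPM follows the average effective length of its transcripts, so it moves when the mix of long and short transcripts moves. In the 790 genes with 1 annotated transcript that served as a calibration, the ratio was linear in transcript length, with 95.2% of genes within 0.1%, and gave an implied fragment length of 178 to 195 nucleotides (nt) in the palatal shelf and 210 to 217 nt in the maxillary process. With it the ratio was turned into a mean transcript length in nt. That length was constant within 1 nt across the 12 libraries for Hnrnpa0 (2678 nt), Hnrnpul2 (5726 nt) and U2af1 (907 nt). Hnrnpa0 has 1 annotated transcript, and the lengths of the other two match no transcript of theirs in GENCODE M21, so the authors' transcript index was not the same as M21. For these 3 genes the ratio says nothing about a mix of transcripts. Over all members the longest mean length was between 1.00 and 1.43 times the shortest, the latter for Clk3.

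No member's effective length passed an FDR of 0.05 in limma in either genotype comparison, and 0 had an unadjusted p under 0.05 in either. The FDR was passed by 0.00775% of all genes in the palatal shelf and by 0.00909% in the maxillary process. In the palatal shelf this was 1 gene, Pdgfra, which the genotype alters. Of all genes 3.90% had such a p in the palatal shelf and 5.16% in the maxillary process. The smallest p in the palatal shelf was that of Hnrnph3 (log2 difference 0.05, unadjusted p = 0.0544), and in the maxillary process those of Hnrnpf (0.05, unadjusted p = 0.0583) and Srrm1 (0.02, unadjusted p = 0.0599). Clk1, whose kinase is known to control a skipped exon and retained introns of its own transcript, had 1761, 1755 and 1772 nt in wild-type and 1755, 1725 and 1790 nt in PI3K libraries, and these overlapped. In the maxillary process Clk1 had 1900, 1842 and 1945 nt in the control against 1773, 1758 and 1924 nt in the cKO, which overlapped as well.

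Between the tissues 6 of the 39 genes had a different effective length at an FDR of 0.05 (15.4%, against 9.09% of all 11093 genes tested): Clk3, Hnrnpl, Tra2b, Hnrnpk, U2af1 and Hnrnpa2b1. Leaving out 1 library gave 0 such members in 5 of 6 fits and 3 in the fit without wild-type library 3. The call of U2af1 came with no change of its mean transcript length, while the implied fragment lengths differed between the tissues. A test on the corrected length, added after the data were seen, called Tra2b (adjusted p = 0.0480) as the 1 member, against 1.09% of all genes. Clk3 (adjusted p = 0.0611), Hnrnpl (adjusted p = 0.0603) and Hnrnpk (adjusted p = 0.0649) did not pass it. In the PI3K and cKO libraries the corrected test called 4 members, Hnrnph2, Hnrnpl, Tra2b and Sf3a1, against 1.95% of all 11261 genes.

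Tra2b had a mean transcript length of 2336, 2288 and 2336 nt in the control and 2108, 2023 and 2061 nt in wild-type palatal shelf. The other libraries repeated this, with 2324, 2311 and 2290 nt in the cKO and 2102, 2049 and 2045 nt in PI3K. All 6 palatal libraries were thus below all 6 maxillary ones. Tra2b is known to carry a poison exon that its own protein includes. GENCODE M21 lists 9 transcripts of Tra2b, of which 3 are annotated for nonsense-mediated decay and 3 as retained introns, and the ratio does not say which of them moved.

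Hnrnpk had 1848, 1905 and 1866 nt in the control and 1643, 1537 and 1635 nt in wild-type palatal shelf, again without overlap, and 1882, 1949 and 1880 nt against 1688, 1587 and 1577 nt in cKO and PI3K libraries. Its fall depended on the scale, and the TPM scale also moved the median log2 change of all genes from 0.03 to 0.16. In CPM the log2 change was -0.50 (adjusted p = 0.00791), whereas per length the level went from 1265 ± 53.1 to 1181 ± 93.1 TPM (SD, n = 3) with overlapping libraries, a log2(TPM + 1) change of -0.10 (limma, adjusted p = 0.459). Hnrnpl moved the other way in length, from 1799, 1844 and 1872 nt in the control to 2031, 2024 and 1998 nt. Its protein binds CA repeats and is known to control a poison exon in its own gene. The cKO libraries of Hnrnpl had 1808, 1837 and 1868 nt and the PI3K libraries 2044, 2033 and 2013 nt, again without overlap between the tissues.

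Clk3 showed the widest range. It had 1531, 1559 and 1612 nt in the control and 2101, 1895 and 1975 nt in wild-type palatal shelf, and 1579, 1534 and 1502 nt in the cKO against 1866, 2143 and 1727 nt in PI3K libraries. Every palatal library was above every maxillary one, though the libraries spread more widely within the palatal groups than within the maxillary ones. From control to wild-type palatal shelf the count of Clk3 fell by 0.43 on the log2 scale while its mean length was higher. The level of Clk3 per length fell further, from 83.0 ± 4.61 to 51.9 ± 1.07 TPM (limma on log2(TPM + 1), -0.67, adjusted p = 0.00238). The corrected length did not pass in these libraries (limma, adjusted p = 0.0611) or in the PI3K and cKO libraries (adjusted p = 0.213). In the latter the count of Clk3 had -0.22 (edgeR, adjusted p = 0.434). Hnrnpa2b1 shifted from 1598, 1600 and 1598 nt to 1611, 1604 and 1610 nt, a small difference without overlap that did not pass the corrected test (adjusted p = 0.192).

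**Figure D4:**
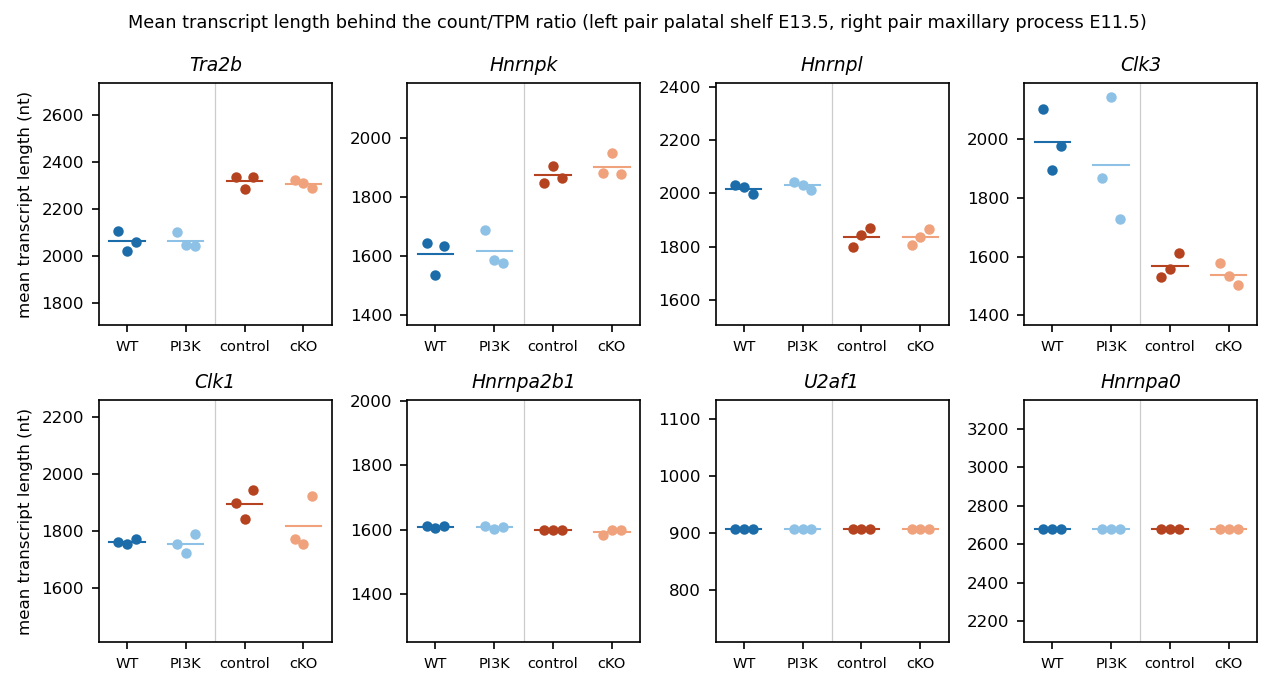
Mean transcript length in nt of 8 genes by library, points for libraries and lines for group means, palatal shelf on the left and maxillary process on the right of each panel, with axes cropped to the same relative range around each gene's mean. Tra2b and Hnrnpk are lower in the palatal shelf, Hnrnpl and Clk3 higher, and U2af1 stays at 907 nt and Hnrnpa0 at 2678 nt.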

How the data were processed

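PolyA RNA-seq of 12 libraries was used, grouped by the labels' genotype, stage and tissue. A NuGen Universal Plus mRNA-Seq kit and an Illumina NovaSeq were used, per the labels' protocols. The deposited gene tables hold estimated counts and TPM made by the authors with Salmon, per the names of the tables. The submitters' processing notes name Salmon 1.1.0, STAR 2.7.0, DESeq2 1.28.1 and mm10, with no role or order; the transcript index, strand setting and any trimming are not given in the sources used here. Of the gene identifiers 53355 had a symbol in GENCODE M21 (GRCm38) or the gene name table, and 0 columns lacked a sample. Depth was 15.9 to 37.4 M estimated counts (M for 1000000).

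For the tests of gene totals, each estimated count was rounded to an integer, and edgeR 4.0.16 under R 4.3.3 was applied (quasi-likelihood F-test, TMM normalisation, edgeR's filter on low counts, Benjamini-Hochberg adjustment over all genes tested, FDR 0.05), each comparison on its own 6 libraries with group as the only term. Effective length was log2(estimated count / TPM), centred per library, for genes whose count reached 50 in each of the 6 libraries, tested with limma 3.58.1. The corrected length and the contrast in PI3K and cKO libraries were chosen after seeing the data. Alternatives were DESeq2 1.42.0, other size factors, no filter, limma on log2(TPM + 1) and log2(TPM + 0.1), a count minimum of 200, no centring, a replicate block and leaving out each library. Functions were tested on simulated data. Replicates are biological per the series' design text, with no embryo, litter or pool named. Deviations of same-numbered libraries from their group means correlated at 0.59, 0.20 and -0.23 in the palatal shelf, for replicates 1, 2 and 3. In the maxillary process the values were 0.06, 0.11 and 0.26, and between the tissues -0.18, 0.06 and -0.0067. As no litter or pairing is named, the numbers were not taken to pair the libraries, and the replicate block was run as an alternative only.

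The members, the other gene lists and the cell type markers were chosen with earlier results of these data known. Genes were named with values by rule: those past the FDR, up to 12 per comparison, the 6 smallest p per comparison and measure, the 5 highest and lowest levels, and always Clk1, Clk4, Srpk1, Srpk2, Tra2a, Tra2b, Snrnp70, U2af1, U2af2 and Sf3b1; other members are named to complete the counts. Protein sequences were not used here.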

Additional observations from a re-analysis of the deposited data

How the results depend on the processing

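The count of 31 genes lower in the palatal shelf was 27 with a replicate block, 27 in the PI3K and cKO libraries and 24 to 34 when leaving out 1 library. limma on log2(TPM + 0.1) called 20. Of the 31 genes, 24 kept the call in all 6 fits that left out a library, and 7 lost it in at least 1: Hnrnpdl, Hnrnpl, Hnrnpr, Hnrnpul1, U2af2, Sf3b1 and Acin1. The count of 0 members in both genotype comparisons held under every alternative run, the replicate block included. Over all genes, the count in the maxillary process moved from 12 to 40 with the replicate block, 143 with no filter and 376 with DESeq2, and was 2 to 29 when leaving out 1 library and 7 with limma on log2(TPM + 1). In the palatal shelf it moved from 0 to 4 with DESeq2. The count of 6 effective length calls between the tissues was 39 without centring, which keeps the difference in depth, 1 with the fragment-length correction, 0 with a replicate block and 0 to 3 when leaving out 1 library (3 without wild-type replicate 3); fewer samples enter these last fits. Without centring Hnrnpk had 0.57 and Tra2b 0.63, and with the correction U2af1 had -0.0000.

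The other changes of sign were in gene totals of members that passed no test. In the maxillary process limma on log2(TPM + 1) and log2(TPM + 0.1) gave -0.0195 for Hnrnpa1, -0.0125 for Hnrnpab, -0.0549 and -0.0550 for Hnrnpd and -0.0567 and -0.0568 for Hnrnpk, and Tra2b was 0.0021 with other size factors and 0.0015 with DESeq2. Between the tissues Clk2 was -0.0048 and -0.0079 with these, and Clk4 was 0.15 in the PI3K and cKO libraries. Leaving out 1 library gave log2 ranges in the palatal shelf of Clk1 -0.0009 to 0.5956, Clk2 -0.1497 to 0.185, Clk3 -0.0414 to 0.367, Hnrnpa2b1 -0.0685 to 0.0353, Hnrnpk -0.0049 to 0.1226, Sf3b1 -0.0168 to 0.3641, Snrnp70 -0.0155 to 0.1502, Tra2a -0.0631 to 0.1993, Tra2b -0.0748 to 0.0446, U2af2 -0.0351 to 0.0866. In the maxillary process they were Clk1 -0.3397 to 0.0707, Clk3 -0.2027 to 0.1053, Clk4 -0.2503 to 0.1414, Hnrnpa1 -0.0443 to 0.079, Hnrnpa2b1 -0.0912 to 0.012, Hnrnpab -0.0886 to 0.1695, Hnrnpd -0.0712 to 0.0857, Hnrnpk -0.0427 to 0.0703, Srpk1 -0.0373 to 0.2551, Tra2a -0.0817 to 0.0103, Tra2b -0.0858 to 0.089, U2af1 -0.055 to 0.2018, and between the tissues Clk1 -0.0504 to 0.1082, Clk2 -0.0511 to 0.0716. For these the cause was not tested. With 3 libraries a group, the interval of Clk4 in the palatal shelf reaches 1.08 on the log2 scale.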
